A study of Mus musculus with 2 samples.

Results

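Type I interferon antiviral genes were examined in 2 mouse lung sections profiled by Visium, which counts transcripts in barcoded spots that each cover a small piece of tissue and can hold several cells of different types. The group comprised Isg15, Ifit1, Ifit2, Ifit3, Oasl2, Rsad2, Mx1, Irf7, Usp18 and Bst2, and 9 of these 10 genes were found by symbol among the 32285 features of both sections. Mx1 was not analysed here. The question was whether these genes change with distance from the tumour spots, and whether they lie in the same spots as Cxcl9 and Iigp1, a pair of genes known as targets of interferon-gamma.

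The metastatic lung came from a female BALB/c mouse, 6 to 8 weeks old, that had received 1000000 cells of 4T1, a mouse mammary carcinoma line that spreads to the lung, in the mammary fat pad, and the lung was taken 21 to 23 days later. The control lung was labelled as untreated, and its strain, sex and age were not given in the labels. The metastatic section held 1110 spots with 14657881 counts (162 to 77512 per spot, median 11334.5), and the control section held 1888 spots with 20329126 counts (237 to 83152, median 9643.5). With 1 section per condition no difference has a replicate check and no test over spots was made, and section, library and animal cannot be told apart from condition. Intervals are exact 95% intervals that cover counting error only. In a spot, fewer cells of a type and less RNA per cell cannot be told apart.

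Type I interferons (interferon-alpha and interferon-beta) signal through IFNAR1 and IFNAR2 to a transcription factor complex that contains STAT2 and IRF9 and binds interferon-stimulated response elements (ISRE). Interferon-gamma, made mainly by T and NK cells, signals through its own receptor to factors that bind gamma-activated sites (GAS). Many genes respond to both. Bst2 (tetherin) holds budding virions at the cell surface, Isg15 is a ubiquitin-like protein that is conjugated to other proteins, and Usp18 removes it and restrains signalling from the receptor. Irf7 is the transcription factor that amplifies interferon-alpha production, Oasl2 belongs to the oligoadenylate synthetase family, the Ifit proteins bind viral RNA and Rsad2 (viperin) makes a nucleotide that stops viral polymerases.

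The promoters differed in the letters that these complexes are known to bind. In the 250 bases before the RefSeq start site (GRCm38.p6), an ISRE-type string (GAAANNGAAA, or TTTCNNTTTC on the other strand) was held by 978 of 32851 promoters (2.98%), and a GAS-type string (TTCNNNGAA, the same on both strands) by 2306 (7.02%). Of the 10 members, 8 had an entry, and 5 of these held the ISRE-type string: Isg15, Bst2, Ifit1, Ifit3 and Rsad2. The GAS-type string was found before 2 members, Bst2 and Ifit2. The 160 bases before the start are shown for Isg15 (chr4:156200819-156200978, minus strand), Bst2 (chr8:71537473-71537632, minus strand), Ifit3 (chr19:34583369-34583528, plus strand) and Cxcl9 (chr5:92328080-92328239, minus strand). The first 2 are the members with the highest ratios of margin to far, Ifit3 is a member that was not higher in the margin, and Cxcl9 is the interferon-gamma target they are set against. Capitals mark the matches, 5′ to 3′ on the gene's strand.
Isg15: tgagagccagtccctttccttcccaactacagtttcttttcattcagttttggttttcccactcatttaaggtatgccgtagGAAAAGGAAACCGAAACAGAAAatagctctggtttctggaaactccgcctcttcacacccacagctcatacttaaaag
Bst2: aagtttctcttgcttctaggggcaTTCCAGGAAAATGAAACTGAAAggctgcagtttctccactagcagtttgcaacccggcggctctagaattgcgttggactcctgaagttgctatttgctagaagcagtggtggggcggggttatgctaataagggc
Ifit3: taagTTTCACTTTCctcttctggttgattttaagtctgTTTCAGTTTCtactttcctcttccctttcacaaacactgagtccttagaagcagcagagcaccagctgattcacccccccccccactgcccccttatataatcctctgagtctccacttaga
Cxcl9: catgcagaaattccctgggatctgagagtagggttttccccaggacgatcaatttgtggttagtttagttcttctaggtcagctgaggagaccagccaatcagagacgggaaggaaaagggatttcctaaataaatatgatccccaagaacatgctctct
In Isg15 the capitals are 3 overlapping ISRE-type matches that begin 78, 72 and 66 bases before the start. In Bst2 a GAS-type match at 136 bases overlaps the ISRE-type match at 130 bases, which overlaps a further one at 124 bases. Ifit3 had ISRE-type matches at 156 and 122 bases, and neither string was found in this window of Cxcl9. These matches describe the letters and are not binding sites that were measured.

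Tumour spots were taken as 1 of 5 k-means clusters of the metastatic section, made without the interferon and MHC genes, and chosen as the cluster with the highest mean score over a list of 4T1 genes. The cluster held 120 spots (10.8% of the section), of which 98 and 19 formed 2 touching groups and 3 stood alone, 2 of these away from the main piece of tissue. It was led by Mmp3, AA467197, Fbp2, Fcna, Pla1a, Ang5, Cd5l, Etv4, Ccl7 and Marco. The 4T1 list was mixed there. Of its 13 genes, 10 had at least 10 counts, and Krt8, Krt18, Fosl1, Areg and Tnfrsf12a were higher than in far spots while Epcam, Fgfbp1, Itgb4 and Sfn were among those that were lower. Lung lists were low in it, with 3.19 counts per 10000 (CP10k) for alveolar type I genes against 40.6 far away, and 0.969 against 21.1 for endothelial genes. Macrophage and monocyte genes summed to 19.5 CP10k against 5.07. Distance was counted in spot steps of 100 µm from the nearest tumour spot: 103 margin spots lay at 1 to 2 steps, 188 intermediate spots at 3 to 5 steps and 699 far spots at 6 steps or more.

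The summed members were highest in the tumour spots and declined with distance. They reached 9.38 CP10k in the tumour spots (1897 counts, 8.97 to 9.82), 6.06 in the margin (825 counts, 5.66 to 6.49), 3.38 in intermediate spots (771 counts) and 2.55 in far spots (2297 counts, 2.45 to 2.66). The control lung stood at 2.45 (4981 counts, 2.38 to 2.52). Step by step, the level was 7.29 at 1 step, 5.08 at 2 steps, 4.25 at 3 steps, 3.24 at 4 steps and 2.71 at 5 steps. Beyond that it no longer declined steadily, with 2.60 at 6 to 8 steps, 2.94 at 9 to 12 steps and 2.17 at 13 steps or more. The margin was thus 2.37 times the far level (2.19 to 2.57), the tumour spots 3.67 times (3.45 to 3.91) and the intermediate spots 1.32 times (1.22 to 1.43). Single spots overlapped between regions: the median and quartiles were 7.13 (4.75 to 9.35) in tumour spots, 5.83 (3.89 to 8.06) in the margin and 2.30 (1.23 to 3.77) far away.

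**Figure D1:**
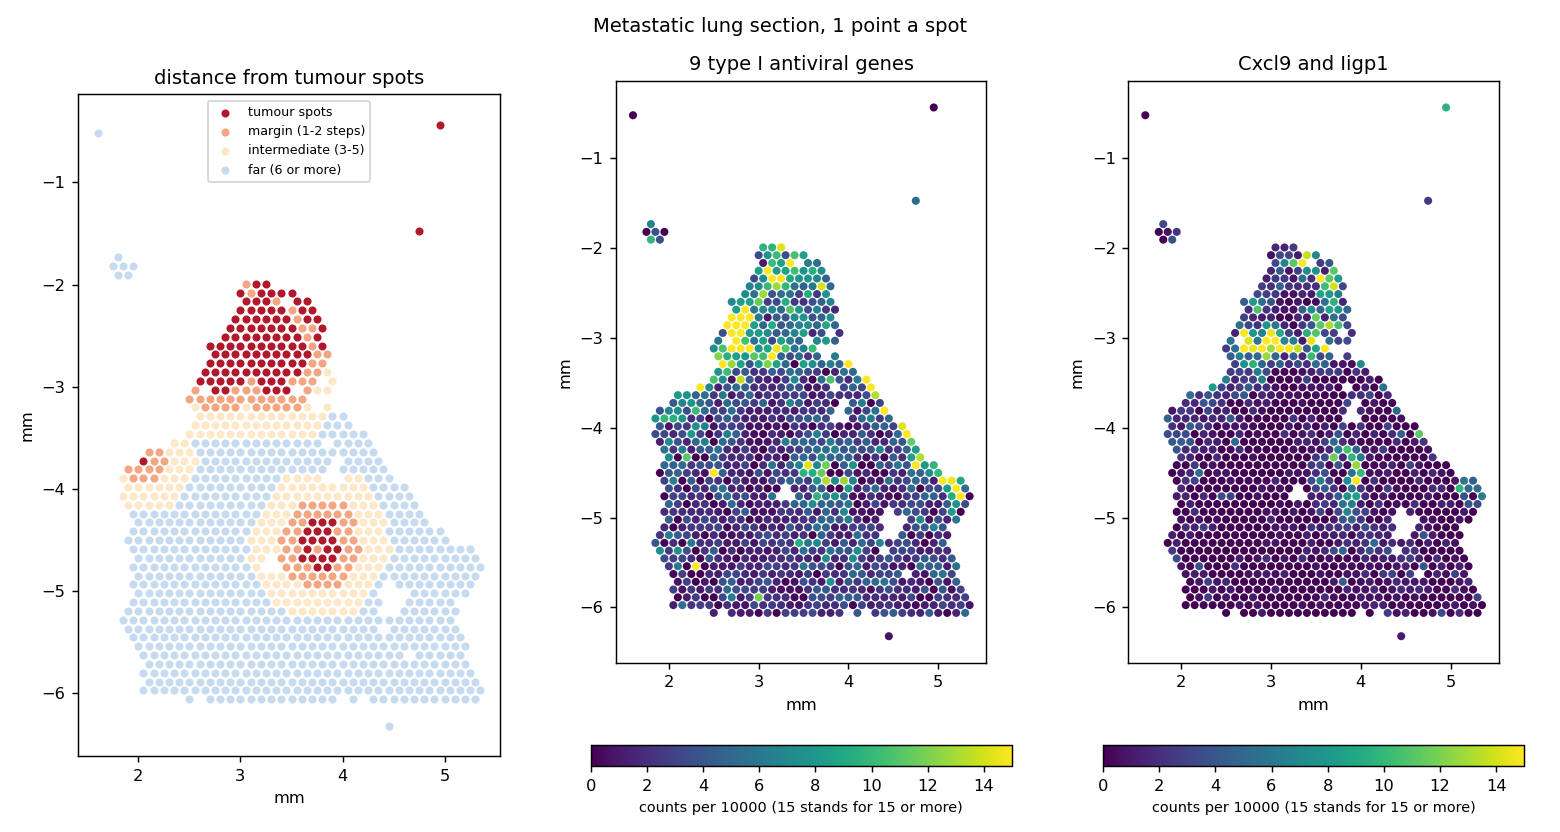
Maps of the metastatic section with axes in mm, in which each point is a spot at its array position, coloured by distance from the tumour spots (left), by CP10k of the 9 summed members (middle) or by CP10k of Cxcl9 and Iigp1 (right), with values above 15 shown as 15. Both sums are high in and beside the larger group of tumour spots, and the members are also high along an oblique edge of the tissue on the right, where the pair is lower in CP10k. Over all edge spots among the far spots, the pair was 2.13 times the inner spots and the members 1.68 times.

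Bst2 held 3060 of the 5790 member counts of the metastatic section and shaped the sum. Without it, the other members reached 3.31 CP10k in the tumour spots, 2.73 in the margin, 1.70 in intermediate spots, 1.45 in far spots and 1.42 in the control lung. The order of the pooled regions was kept, and the ratio of margin to far became 1.89 (1.68 to 2.12). Single spots had the other order, with a median of 1.74 CP10k in tumour spots (quartiles 0.765 to 2.80) and 2.20 in the margin (1.41 to 3.79). In tumour spots, 302 of the 1897 member counts lay in 4 spots described below, and 102 of these were Bst2. The pooled order turned at the larger of the 2 groups of tumour spots. There the sum without Bst2 stood at 3.85 CP10k in the margin and 3.38 in the tumour spots, a ratio of 1.14 with an interval of 0.978 to 1.32. With Bst2 the sum was 8.06 and 9.57 there.

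Of the 9 measured members, 7 were higher in the margin than far away (Usp18 among them by a ratio of 1.00 that other totals put at 0.769), 5 were at least 2-fold higher and 0 at least 2-fold lower. Of all 14060 genes tested, 71.9% were higher in the margin, 16.8% at least 2-fold higher and 5.73% at least 2-fold lower. In margin over far the median log2 ratio was 1.18 over the members and 0.37 over all genes. In intermediate spots 6 of 9 members were higher than far away and 0 at least 2-fold (background 75.9% and 3.77% of 14102 genes). Airway and blood transcripts took many of the counts far away. When haemoglobin, mitochondrial, surfactant, immunoglobulin and secretoglobin genes were left out of the spot totals, the median of all genes in margin over far was −0.01, and the margin-to-far ratio was still above 2 for Isg15 (2.69), Ifit2 (2.20), Irf7 (2.03) and Bst2 (2.30). Against far spots, the tumour spots were higher in 8 of 9 members, 6 of them at least 2-fold (background 58.1% and 23.5% of 14169 genes). Between the pooled margin and tumour spots, 2 of 9 members, Ifit2 and Ifit3, were higher in the margin (background 56.1% of 12254 genes), while 1, Rsad2, was at least 2-fold lower there (background 6.2%). These counts differed between the groups of tumour spots, for which no share over all genes was computed. At the smaller group, whose tumour spots held 46 member counts, 1 of 9 members was higher in the margin and 6 were lower. At the larger group 6 of 9 members were higher in the margin, with ratios to its tumour spots of 1.16 for Isg15 (0.892 to 1.49), 1.16 for Oasl2 (0.789 to 1.67), 1.10 for Irf7 (0.782 to 1.53), 1.00 for Ifit1 (0.438 to 2.10), 1.98 for Ifit3 (1.19 to 3.25) and 3.11 for Ifit2 (1.16 to 8.32), and Bst2 was lower there (0.680, 0.593 to 0.779).

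**Figure D2:**
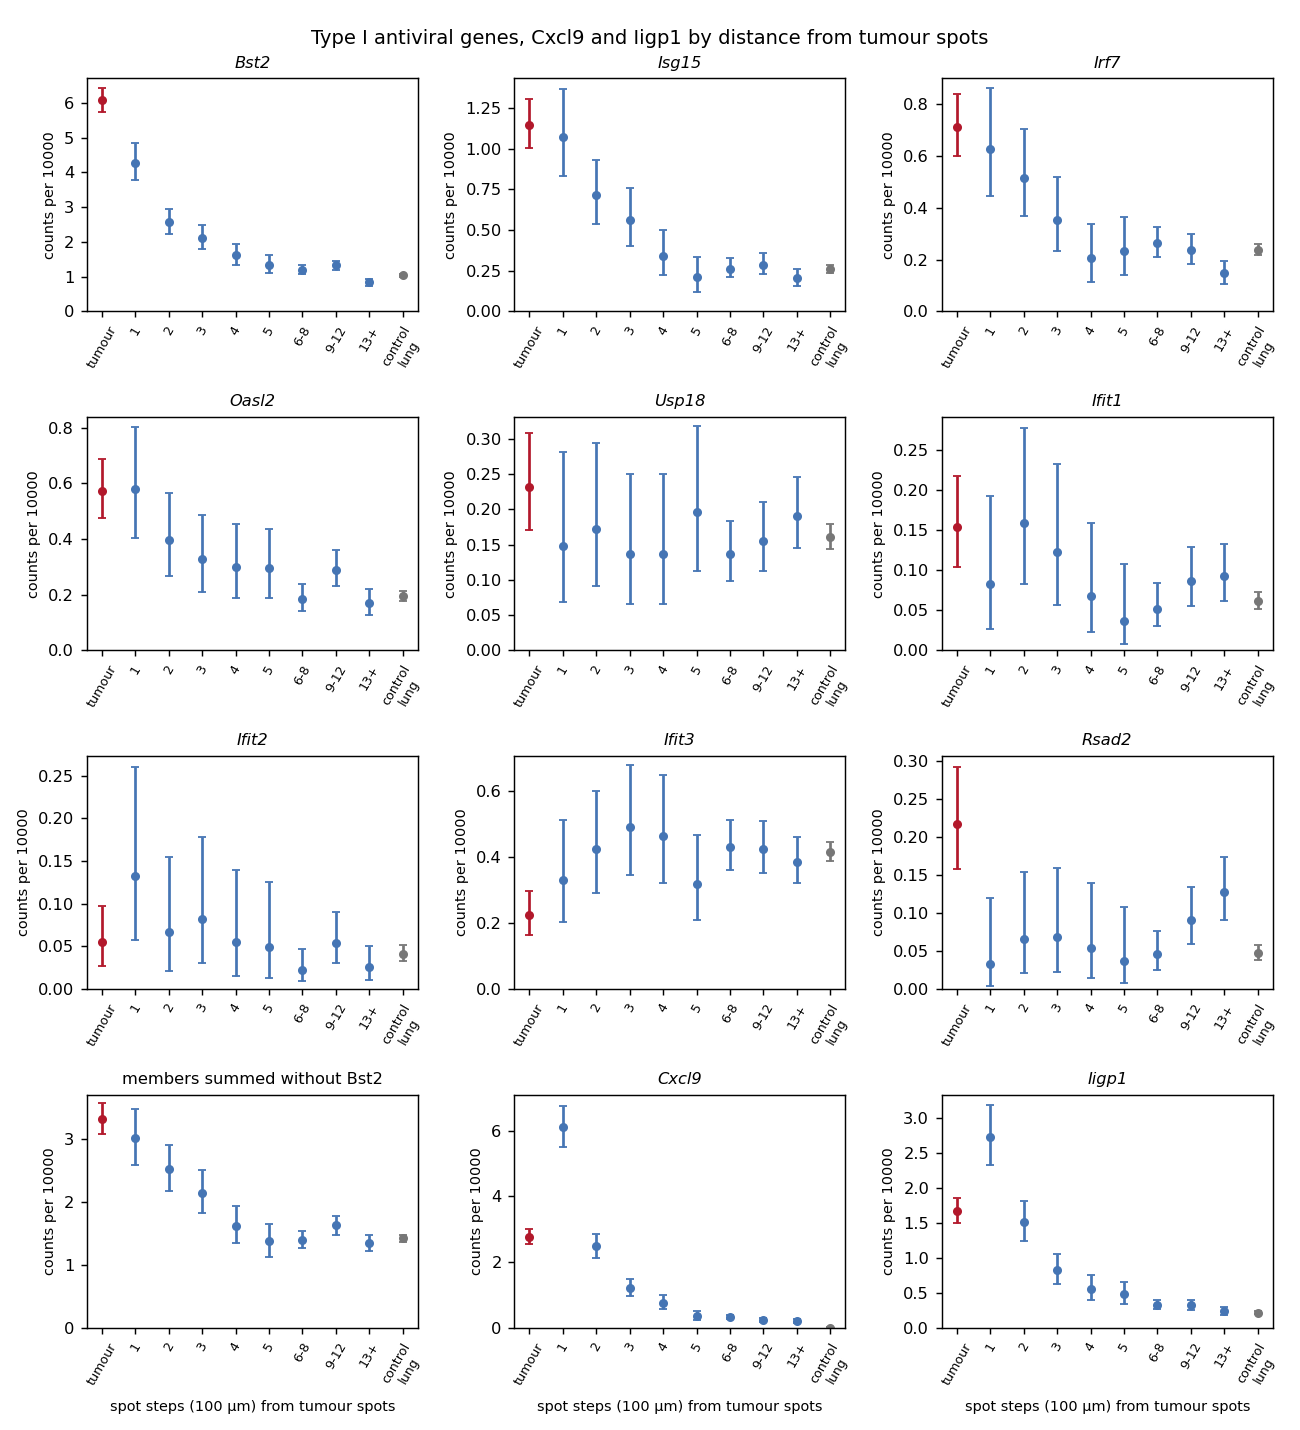
Level in CP10k (vertical axis) of each member, of the members without Bst2 and of Cxcl9 and Iigp1 against steps of 100 µm from the nearest tumour spot (horizontal axis), with exact 95% Poisson intervals as bars, tumour spots in red, steps in blue and the control lung in grey. Bst2, Isg15, Irf7 and Oasl2 decline over the first 5 steps, and Ifit3 and Usp18 do not.

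Bst2, the surface tether, had the steepest fall from tumour spots to lung of all members. Its level was 6.07 CP10k in tumour spots (1227 counts), 3.33 in the margin (453), 1.68 in intermediate spots (383), 1.11 in far spots (997) and 1.03 in the control lung (2099). It was present in 93.3% of tumour spots, 94.2% of margin spots and 64.1% of far spots. Thinned to 5000 counts per spot, these shares were 86.7%, 78.0% and 40.6%. The margin was 3.0 times far (2.68 to 3.36) and 0.549 times the tumour spots (0.491 to 0.611), so that the level peaked inside the tumour spots and not beside them.

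Isg15, the ubiquitin-like modifier, followed the same order with 1.15 CP10k in tumour spots (232 counts), 0.875 in the margin (119), 0.363 in intermediate spots (83), 0.249 in far spots (224) and 0.260 in the control lung (528). The margin was 3.51 times far (2.79 to 4.40), the highest such ratio among the members, and 0.762 times the tumour spots (0.606 to 0.955). Of the 232 counts in tumour spots, 73 lay in the 4 spots described below. The other 116 tumour spots stood at 0.830 CP10k, not above the margin, so the pooled order of tumour spots and margin depended on those 4 spots. In thinned spots, 33.3% of tumour spots and 34% of margin spots had a count of Isg15. Usp18, which removes Isg15 from proteins, did not follow it. Its level was 0.232 CP10k in tumour spots (47 counts), 0.162 in the margin (22), 0.158 in intermediate spots (36), 0.161 in far spots (145) and 0.161 in the control lung (328). The ratio of margin to far was 1.00 (0.609 to 1.58), and the ratio of tumour spots to far was 1.44 (1.01 to 2.02), or 0.987 without the abundant genes in the totals.

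Irf7, the interferon-amplifying factor, stood at 0.712 CP10k in tumour spots (144 counts), 0.566 in the margin (77), 0.263 in intermediate spots (60), 0.214 in far spots (192) and 0.237 in the control lung (481). Oasl2 stood at 0.574 (116 counts), 0.478 (65), 0.307 (70), 0.211 (190) and 0.194 (395) in the same order. Both were higher in the margin than far away, by 2.65 times for Irf7 (2.01 to 3.47) and 2.26 times for Oasl2 (1.68 to 3.01). Neither could be separated between margin and tumour spots, where the ratios were 0.794 (0.594 to 1.06) for Irf7 and 0.833 (0.605 to 1.14) for Oasl2.

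The Ifit genes, neighbours on chromosome 19, did not move as 1 unit. Ifit1 had 31 counts in tumour spots, 17 in the margin, 17 in intermediate spots, 69 in far spots and 124 in the control lung, and its margin-to-far ratio of 1.63 had an interval of 0.897 to 2.80. Ifit2 had 11, 13, 14, 30 and 84 counts, with a margin-to-far ratio of 2.86 (1.37 to 5.66). Ifit3 was the member that was low in the tumour spots. It stood at 0.223 CP10k there (45 counts), 0.382 in the margin (52), 0.420 in intermediate spots (96), 0.413 in far spots (371) and 0.416 in the control lung (846). Tumour spots held 0.539 times the far level of Ifit3 (0.387 to 0.736), a fall of less than 2-fold. Of 14169 genes, 58.1% were higher in tumour spots than far away, and 21.7% were at least 2-fold lower. Ifit3b, a near-identical copy whose reads can be confused with those of Ifit3, had 2 counts in tumour spots and 98 far away, and the 2 genes together stood at 0.232 and 0.522 CP10k.

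Ifit3 was high in spots rich in genes of alveolar type I cells, the thin cells of the alveolar wall. In the 20% of far spots richest in alveolar type I genes, it was 2.23 times the level of the other far spots, and in the control lung 2.07 times. The summed members were 1.75 times higher in such far spots (1.60 to 1.92) and 1.58 times in the control lung (1.49 to 1.69). Other lists moved with Ifit3 as well. It was 1.83 times higher in the far spots richest in endothelial genes (1.59 times in the control lung), 1.71 times in those richest in neutrophil genes (1.16 times) and 1.70 times in those richest in mesothelial genes (1.27 times). For the summed members the mesothelial ratio was the highest of these in far spots, at 2.08 against 1.13 in the control lung. In the spots richest in airway genes, the summed members were lower in both sections, at 0.390 and 0.407 times the other spots. Usp18 was not lower there (1.03 and 1.23 times). Airway transcripts are part of the totals of these spots, and their part in the low ratios was not tested.

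**Figure D3:**
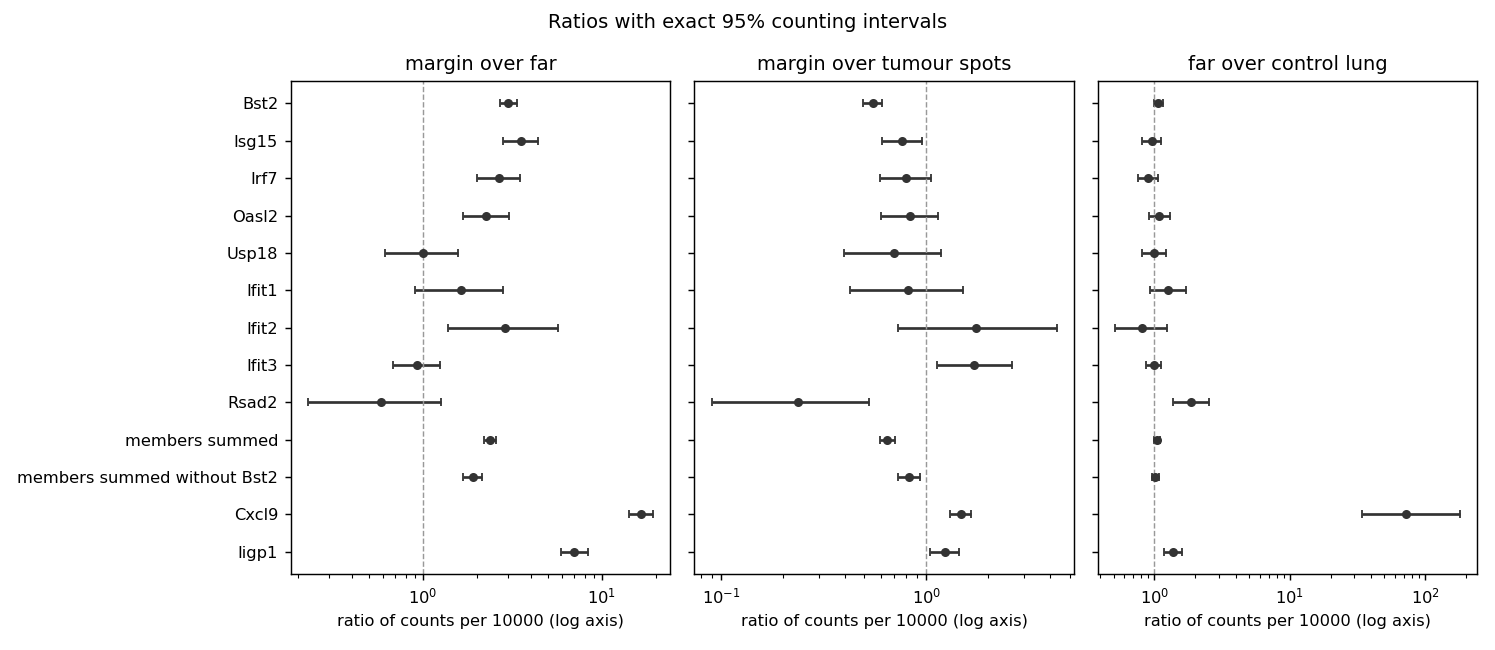
Ratio of CP10k between regions on log axes for each member, the summed members, Cxcl9 and Iigp1, with panels for margin over far, margin over tumour spots and far over control lung, with exact 95% intervals as bars and 1 marking equal levels. In the ratio of margin to far, Cxcl9 (16.5) and Iigp1 (7.01) lie to the right of all members, the highest of which is Isg15 (3.51).

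Rsad2, the viperin gene, had its own pattern. It had 44 counts in tumour spots, 7 in the margin, 12 in intermediate spots, 79 in far spots and 96 in the control lung, and it was the member with the highest ratio of far spots to control lung (1.86, 1.36 to 2.53). In the margin it was 0.586 times far (0.228 to 1.26), and in the tumour spots 2.48 times far (1.67 to 3.63). That excess lay in 4 touching spots of the larger group, which held 30 of the 44 counts and were picked after their values were seen, as spots with 3 or more Rsad2 counts. In the other 116 tumour spots Rsad2 was 0.832 times far (0.435 to 1.48).

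Other members were also high in these 4 spots. The spots had 14, 8, 5 and 3 counts of Rsad2, 14, 34, 16 and 9 of Isg15, 16, 9, 7 and 3 of Irf7 and 6, 3, 3 and 4 of Ifit1. As levels, Isg15 stood at 6.82 CP10k against 0.830 in the other 116 tumour spots, Irf7 at 3.27 against 0.569, Usp18 at 1.31 against 0.172, Ifit1 at 1.49 against 0.0783 and Ifit3 at 1.49 against 0.151. Bst2 differed less, at 9.53 against 5.88. Cxcl10, a chemokine gene that responds to both interferon types, stood at 16.9 against 2.17, and Cxcl9 and Iigp1 together at 8.41 against 4.21. These 4 spots carried the excess of Ifit1 in tumour spots as well, since the other 116 had 1.02 times the far level of Ifit1 (0.542 to 1.80) and 1.07 times that of Usp18 (0.709 to 1.57), but Isg15 (3.33 times), Irf7 (2.67 times), Oasl2 (2.5 times) and Bst2 (5.30 times) stayed above far in the 116 spots. No count of Ifnb1 or Ifng was found in the 4 spots.

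Away from the tumour spots, Rsad2 moved with red blood cell genes. When control spots were ordered by a list of haemoglobin genes and Alas2 and cut into 5 equal groups, Rsad2 stood at 0.0170, 0.0237, 0.0239, 0.0398 and 0.133 CP10k from the poorest to the richest group. In far spots it had 0 of 3016030 counts in the poorest group (upper limit 0.0122 CP10k), and then 0.0636, 0.113, 0.175 and 0.235 CP10k. A separate ranking took the mean score over the genes of the list in place of their sum. The richest 20% of spots by that mean score had 5.35 times the Rsad2 of the others in the control lung (3.50 to 8.24). In far spots they had 4.54 times (2.76 to 7.33). Cmpk2, its neighbour gene and a member of the wider antiviral list, showed no such order in the control lung (0.0888, 0.0800, 0.0930, 0.0848 and 0.0800). In far spots Cmpk2 stood at 0.0597, 0.106, 0.125, 0.154 and 0.0818. Bst2 was lower in the spots richest by that mean score (0.625 times in the control lung and 0.770 times in far spots). It did not fall steadily, since the poorest of the 5 groups was low as well. From poorest to richest it stood at 0.710, 1.46, 1.33, 1.17 and 0.696 CP10k in the control lung. In far spots it stood at 0.766, 1.55, 1.25, 1.27 and 0.838. The red blood cell list itself stood at 549.9 CP10k in far spots, 104 in the margin and 23.8 in tumour spots, and its part in the low Rsad2 of the margin was not tested.

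**Figure D4:**
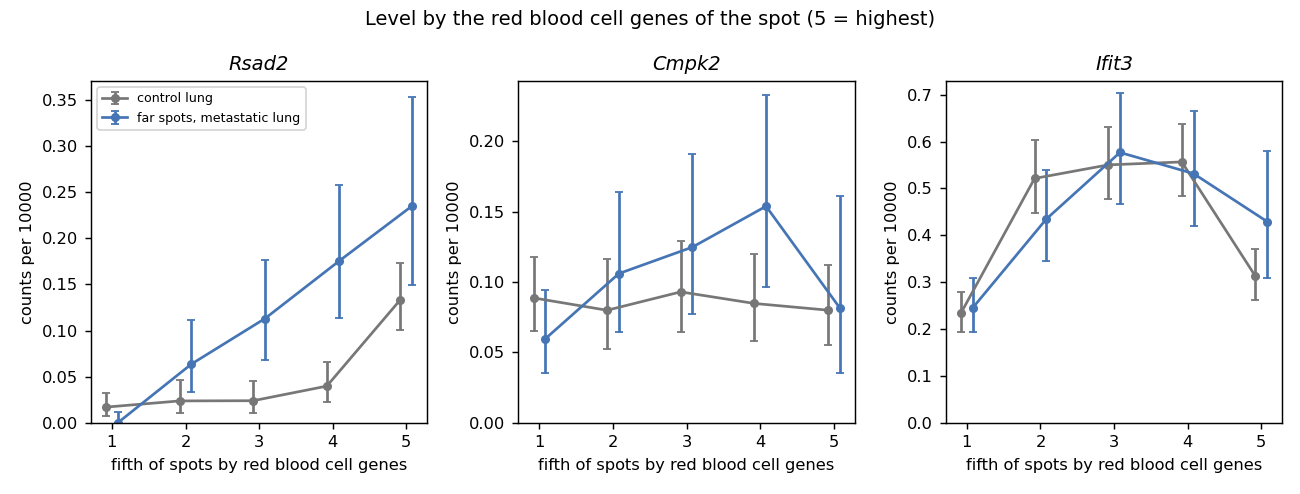
Level of Rsad2, Cmpk2 and Ifit3 in CP10k (vertical axis) over 5 equal groups of spots ordered by the red blood cell list (horizontal axis, 5 being the richest), in the control lung and in far spots, with exact 95% Poisson intervals as bars. Rsad2 climbs from 0.0170 to 0.133 in the control lung and from 0 counts to 0.235 in far spots, and Ifit3 is lowest in the poorest group of both.

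Cxcl9 and Iigp1 had a steeper gradient, and in the pooled regions their level peaked in the margin. Summed, they stood at 4.44 CP10k in tumour spots, 6.14 in the margin, 1.37 in intermediate spots, 0.540 in far spots and 0.216 in the control lung. At 1 step from the tumour spots the level was 8.82, and at 2 steps 3.98. The margin was 11.4 times far (10.1 to 12.7) and 1.38 times the tumour spots (1.26 to 1.52), where the members had 2.37 and 0.646. The margin peak came from the larger group of tumour spots, where the pair stood at 10.5 CP10k in the margin and 4.40 in the tumour spots (2.38 times, 2.14 to 2.64). At the smaller group it stood at 2.57 in the margin and 5.79 in the tumour spots (0.444 times, 0.318 to 0.633). Cxcl9, a chemokine gene that draws T cells, was 16.5 times far in the margin, and Iigp1, an immunity-related GTPase gene, 7.01 times. The sum of the 2 genes was also higher in far spots than in the control lung (2.5 times, 2.19 to 2.85), mostly by Cxcl9, with 223 counts against 7. The members differed little there (1.04 times, 0.992 to 1.10). Of the 9 members, 5 were higher in far spots than in the control lung and 0 at least 2-fold higher, with backgrounds of 27.5% and 1.88% of 15749 genes, and Isg15, Irf7, Ifit3 and Usp18 moved from below 1 to above it with totals without the abundant genes.

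Inside the tumour spots the gradients ran in opposite directions. From the 56 spots at the rim, through 27 spots 2 steps in, to 37 spots at 3 steps or more, the summed members stood at 7.34, 11.2 and 10.4 CP10k. The pair declined over the same spots, from 5.87 to 4.37 and 3.03. The deepest spots had 1.41 times the members of the rim (1.27 to 1.58), 1.71 times without Bst2, and 0.516 times the pair (0.439 to 0.605). Isg15 stood at 0.793, 1.11 and 1.53, Irf7 at 0.396, 0.965 and 0.880 and Bst2 at 5.10, 6.88 and 6.56, while Cxcl9 stood at 3.95, 2.98 and 1.45. Iigp1 showed less of a decline (1.92, 1.39 and 1.58). Some members were higher at 1 step outside than at the rim, so that their level did not fall steadily outward. The sum without Bst2 stood at 2.24 at the rim (1.92 to 2.59) and 3.01 at 1 step outside (2.59 to 3.48). Isg15 stood at 1.07 and Irf7 at 0.628 at 1 step outside, whereas Bst2 was lower there than at the rim, at 4.28. The list of interferon-gamma-induced genes declined inward as the pair did, from 95.7 to 68.3 and 40.9, T and NK cell genes stood at 3.02, 1.63 and 1.20, and macrophage genes at 21.8, 19.2 and 17.3. Their part in either gradient was not tested. Without the 4 Rsad2-rich spots the ratio of deepest spots to rim was 1.37 for the members and 0.543 for the pair. Steps inside were counted from the nearest tissue spot outside the cluster, so spots at a free edge of the tissue can count as deep. Among tumour spots with tissue on all sides (28 deepest and 41 at the rim) the ratio was 1.56 for the members (1.37 to 1.79), 2.24 without Bst2, 3.04 for Isg15 (1.98 to 4.80) and 0.464 for the pair (0.379 to 0.567).

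**Figure D5:**
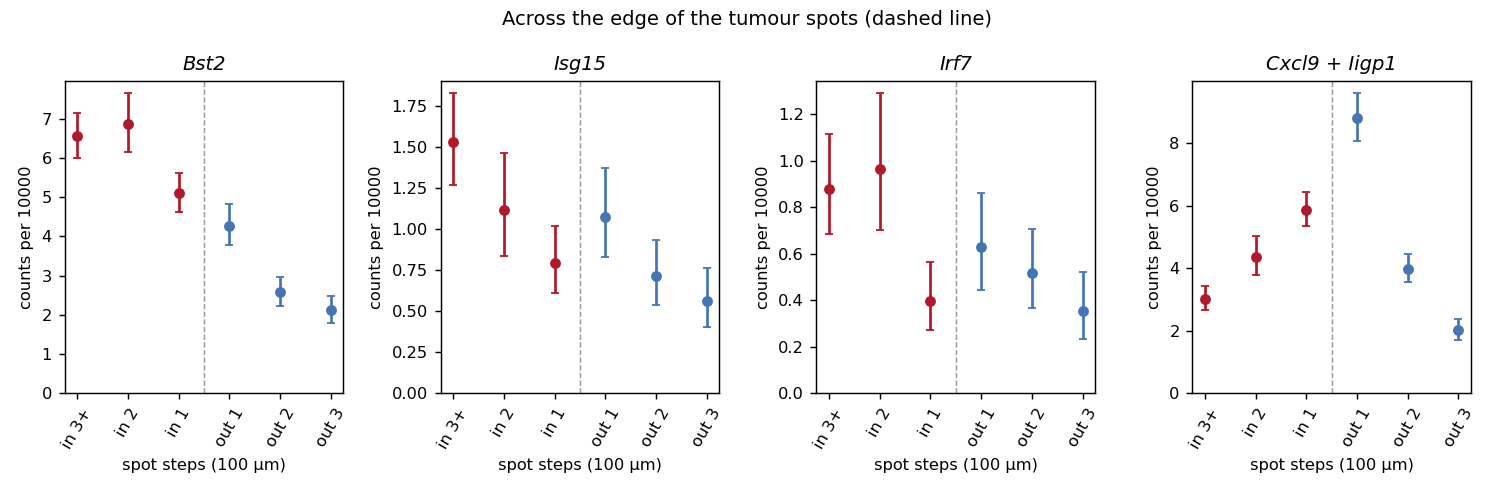
Level in CP10k (vertical axis) of Bst2, Isg15, Irf7 and the pair across the edge of the tumour spots (dashed line), by steps of 100 µm inside it (red) and outside it (blue), with exact 95% Poisson intervals as bars. Bst2, Isg15 and Irf7 are highest at 2 or at 3 or more steps inside, and the pair is highest at 1 step outside (8.82).

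Over spots, the members and the pair shared some of their richest places. After each spot was thinned to 5000 counts (1028 spots deep enough), 45 of the 103 richest spots for the members were also among the 103 richest for the pair (43.7%, 33.9 to 53.8). Without Bst2 the share was 31.1%. Within far spots the share with Bst2 was 23.1% (15 of 65). In the margin it was 40% (4 of 10, 12.2 to 73.8) and in tumour spots 18.2% (2 of 11, 2.28 to 51.8). Each list held the richest 10% of its spots, and unrelated lists of that size would share about 10%. Over all 1110 spots, which share 1 library and differ in depth, Pearson's r between the sums was 0.44 (Spearman's rho 0.42), and 0.33 in tumour spots, 0.38 in the margin, 0.45 in intermediate spots and 0.17 in far spots. Member by member, r with the pair was 0.46 for Bst2, 0.33 for Isg15, 0.26 for Irf7, 0.23 for Oasl2, 0.08 for Ifit2, 0.07 for Ifit1, 0.03 for Ifit3, 0.01 for Usp18 and −0.00 for Rsad2.

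The spots rich in members alone and those rich in the pair alone differed in how many lay in the margin and far away. Of the 58 spots rich in members but not in the pair, 18 were tumour spots, 9 margin, 8 intermediate and 23 far. Of the 58 rich in the pair but not in members, 18 were tumour spots, 26 margin, 8 intermediate and 6 far. Among the former, 12 of the 23 far spots lay at the edge of the tissue, against 0 of the 6 far spots of the latter. Of the 5 far spots rich in both, 3 lay there. The far region as a whole had 137 edge spots and 560 inner spots, so 6 spots are too few to set a share. Lists that did not choose the spots also differed. Mesothelial genes, which mark the lining of the lung surface, summed to 2.96 CP10k (2.60 to 3.36) in members-only spots and 0.961 (0.761 to 1.20) in pair-only spots, whereas T and NK cell genes summed to 1.60 (1.33 to 1.90) and 3.59 (3.19 to 4.02), and macrophage and monocyte genes to 13.4 and 19.3. Airway genes summed to 190 and 76.8, alveolar type I genes to 32.0 and 17.0, and fibroblast and smooth muscle genes to 7.03 and 4.04. The mesothelial level was not particular to members-only spots, since the 45 spots rich in both had 2.67 CP10k (2.29 to 3.09). Of these 45, 18 lay at the tissue edge, against 20 of the members-only and 11 of the pair-only spots. The lists were not compared within regions, whose mix differed between the classes. The genes highest in members-only over pair-only spots included Clec3b, Gas6, Fmo2 and C3, and those lowest were Igha, Cxcl9, Retnla, Igkc and Iigp1, of which Cxcl9 and Iigp1 chose the spots.

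The tissue edge of the metastatic lung held more of some members than its inside. In far spots the 137 edge spots had 1.68 times the summed members of the 560 inner spots (1.52 to 1.85), with 2.11 times for Bst2 (1.83 to 2.43), 1.92 times for Oasl2 (1.36 to 2.67), 1.52 times for Isg15 (1.09 to 2.10) and 0.973 times for Usp18 (0.589 to 1.54). The control lung had a ratio of 1.05 for the summed members (0.986 to 1.12; 506 edge and 1380 inner spots). Mesothelial genes were richer at the edge of both, by 1.77 times in far spots and 1.5 times in the control lung. In the 20% of spots richest in mesothelial genes, Bst2 was 2.71 times the level of the others in far spots and 1.01 times in the control lung. The pair was also higher at the far edge (2.13 times, 1.74 to 2.61), so the edge held both. The part of mesothelial cells in it was not tested.

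The wider type I list was higher near the tumour spots but even between margin and tumour spots. A list of 36 other type I antiviral genes had 35 measured and 33 with enough counts, of which 30 were higher in the margin than far away and 14 at least 2-fold (background 71.9% and 16.8% of all genes), with a median log2 ratio of 0.84 against 0.37 over all genes. Between margin and tumour spots its level was even, at 47.3 and 47.6 CP10k, and 14 of 32 genes were higher in the margin (background 56.1%). A list of 24 interferon-gamma-induced genes was at least 2-fold higher in the margin than far away in 24 of 24, with a median of 2.19, and 21 of 24 were higher in the margin than in tumour spots, where the list summed to 99.1 and 68.4 CP10k. Stat2 and Irf9, which serve the type I complex, were 1.56 and 1.61 times far in the margin, and 1.19 (0.923 to 1.52) and 0.976 times (0.746 to 1.26) in the tumour spots. The receptor genes Ifnar1 (1.03 times) and Ifnar2 (1.41 times) differed little from the shift of all genes. Of 13 sensors and adaptors of nucleic acids, 11 were measured and 10 had enough counts, of which 10 were higher in the margin than far away and 5 at least 2-fold, with a median log2 ratio of 1.01 and a summed ratio of 1.92. Tmem173 (STING, which answers to cytosolic DNA) was 4.67 times far in the margin and 5.89 times in tumour spots. Zbp1, a sensor placed in the list of other antiviral genes, was 7.52 and 8.80 times far. Both were named after their values were seen.

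The ligands were at the limit of detection. Ifnb1 and each interferon-alpha gene on the list had 0 counts in the metastatic section, where 3 counts would stand at 0.00205 CP10k. Ifng had 17 counts in the metastatic section, 7 of them in the margin, 4 in tumour spots, 3 in intermediate spots and 3 in far spots, and 10 in the control lung. Plasmacytoid dendritic cell genes, the list for the cells known for making interferon-alpha, summed to 1.18 CP10k in tumour spots, 1.27 in the margin and 0.701 in far spots. Of its 7 genes, 6 were at least 2-fold higher in tumour spots than far away (background 23.5%), with a median log2 ratio of 2.34 against 0.23 over all genes. In the margin 6 had enough counts and 5 were at least 2-fold higher (background 16.8%, median 2.07 against 0.37). Tcf4 was not higher in either. The sum of 2.66 in the control lung was mostly Cox6a2, a gene also known from heart and skeletal muscle, with 4015 of 5407 counts (1.98 CP10k against 0.0567 in far spots). Of the 7 genes, 2 were higher in far spots than in the control lung (background 27.5%), with a median log2 ratio of −0.24 against −0.19 over all genes.

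The gradient of the summed members was found around both groups of tumour spots, and their ratios were higher at the larger one. Around the group of 98 spots the members were 3.75 times far in the tumour spots (3.52 to 3.98) and 3.16 times in the 45 margin spots (2.86 to 3.48). At the group of 19 spots they were 2.32 times (1.69 to 3.10) and 1.55 times in 47 margin spots (1.36 to 1.77). Without Bst2 the ratios at this smaller group were 1.42 (0.812 to 2.32) and 1.10 (0.886 to 1.34), neither clear of 1. The pair was 19.4 times far in the margin and 8.14 times in the tumour spots of the larger group, and 4.76 and 10.7 times at the smaller, so that its order turned between them. At the larger group Isg15 was 5.50 times far in the margin and 4.75 times in the tumour spots, so that its peak inside the tumour spots was not seen there, while Bst2 kept it (3.8 and 5.58 times). At the smaller group the margin ratio was 1.51 for Isg15 (0.949 to 2.31) and 2.15 for Bst2 (1.80 to 2.55), and Bst2 alone among the members had an interval clear of 1 in that margin.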

How the data were processed

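The deposited Visium data of 2 lung sections were used. The authors' files hold raw counts of transcripts (by molecular barcode) for every gene in each tissue-covered spot, without normalization, and the submitters' processing notes name Space Ranger 1.3.1 and mm10. Members were matched by symbol. The members, gene lists and tests were chosen with earlier results of these data known. A level is the count of a gene or list summed over the spots of a region, per 10000 counts of that region (CP10k), with the exact Poisson interval at 95%. The interval of a ratio is the exact binomial one for how its counts divide between both regions. Log2 ratios over all genes took a pseudocount of 0.5 counts and needed 10 counts over both regions. For tumour spots, k-means was run with 5 clusters on 20 principal components of 2000 variable genes (seed 20), leaving out 131 interferon and MHC genes. Spots were thinned to 5000 counts for shares and overlaps, since depth ranged widely and a spot near 10000 counts gives about 1 count to a gene at 1 CP10k.

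Genes named were all members and the pair, genes of the interferon lists needed to show ligands, receptors, sensors or paralogs, the 10 genes most correlated with the members, and the 5 highest and 5 lowest between members-only and pair-only spots. Cxcl10, Cmpk2, Cox6a2, Tmem173 and Zbp1 were named after their values were seen. Alternatives were other tumour spot rules, other totals, thinning, means of spots, other region edges, Bst2 left out, each metastasis alone and other count and overlap limits. The scripts were tested on simulated data. They ran in Python 3.11.15 with scikit-learn 1.9.0, scipy 1.17.1, numpy 2.4.6, matplotlib 3.10.9 and pandas 2.3.3. Promoter sequences were from RefSeq tables of GRCm38.p6. Some genes that these rules name are not reported here.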

Additional observations from a re-analysis of the deposited data

How the results depend on the processing

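No paired analysis was possible because each group had 1 section, so the groups shared fewer than 2 replicate numbers, and leaving out a replicate was not possible either. Over the alternatives run for each, no ratio crossed 1 for the summed members in margin over far or margin over tumour spots, or for the pair in margin over far, and far over control of the members crossed it under 1. The pair in margin over tumour spots was run only for each metastasis alone, and was 2.38 at the larger and 0.444 at the smaller, where it crossed 1. For the summed members that ratio was 0.843 at the larger. These splits were chosen after seeing the data. The ratio of margin to far of the summed members was 3.16 with 8 clusters, 1.57 with tumour spots taken as the top 6% by the 4T1 list, 1.82 with totals without 455 abundant genes, 2.14 as a mean of spots, 3.14 with the margin at 1 step and far at 10 steps or more, 1.89 without Bst2, 1.55 at the smaller and 3.16 at the larger metastasis, and 1.95 with tumour spots as the top 10% by Mmp3, Etv4, Fosl1, Areg and Myc, an alternative chosen after seeing the data. In the same order, margin over tumour spots was 0.856 with 8 clusters, 0.724 with the other totals, 0.774 as a mean of spots, 0.777 with the other region edges, 0.825 without Bst2 and 0.518 with the Mmp3 set. It was 0.771 after thinning and 0.728 without the 4 Rsad2-rich spots, also chosen after seeing the data. Far over control was 1.15 with the 4T1 list, 1.16 with the other totals, 1.12 after thinning and 0.947 with the other region edges. For the pair, margin over far was 3.47 with the 4T1 list, 8.71 with the other totals, 9.47 after thinning, 8.74 as a mean of spots, 18.6 with the other region edges and 8.66 with the Mmp3 set. The tumour spots numbered 79 with 8 clusters (78 shared with the 120) and 67 with the 4T1 list (26 shared). The causes were not tested. Inside the tumour spots, both alternatives to the ratio of deepest spots to rim were also added after seeing the data. The share of richest spots held by both stayed between 34.6% and 50.5% over other limits. With at least 50 counts, 6 of 8 members were higher in the margin than far, against 73.6% of 11256 genes. Without abundant genes in the totals, Usp18 fell below 1 in margin over far (0.769), and Isg15 (1.06), Irf7 (1.00), Ifit3 (1.10) and Usp18 (1.11) came to lie above 1 in far over control.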

Other observations

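The 10 genes outside the group whose level over the 1110 spots was most like that of the summed members, among 4497 genes with enough counts, were S100a6 (Pearson's r 0.50), H2-K1 (0.49), C3 (0.48), Tmsb10, Ifi27l2a, Ifitm3, H2-D1, Timp1, S100a4 and Gbp2 (0.44). H2-K1 and H2-D1 encode classical MHC class I chains, Ifitm3 blocks entry of viruses and Gbp2 is a guanylate-binding protein. Iigp1 came at rank 19 and Cxcl9 at rank 84. Without Bst2 in the sum, Ifitm3 (0.36), Cxcl10 (0.33) and Gbp2 (0.30) ranked highest, and S100a6 came at rank 22. All these values share 1 library.

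The counts of some members lay in few spots. In the metastatic section the richest 5% of spots held 44.4% of Isg15 counts and 34.3% of Bst2 counts, against 35.8% and 20.7% in the control lung, where the levels were lower. The highest count in 1 spot was 34 for Isg15 and 40 for Bst2 in the metastatic section and 5 and 8 in the control lung.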
